A study of Mus musculus with 12 samples.

Results

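Acute-phase proteins were followed at the RNA level in mouse liver through 10 genes, Saa1, Saa2, Saa3, Lcn2, Hp, Hpx, Orm1, Orm2, Apcs and Crp. Every probe whose annotated transcript belongs to one of these symbols was taken. This gave 10 probes, 1 per gene, of 39429 probes on the array, of which 27508 had a symbol of 1 of 20886 genes. All 10 were well above background on all 12 arrays, so that no member was lost to a filter on dim signals.

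The livers came from female C57BL/6N mice, 3 per diet, each hybridised to 1 one-colour array after 6 months of feeding. Ctrl mice received a formula diet with corn starch and sucrose as carbohydrates. RS mice received that diet with resveratrol, a plant stilbene, added. DJ mice received rice of the variety Dongjin in place of starch and sucrose, and DJ526 mice received the DJ526 rice, a Dongjin line that carries a peanut stilbene synthase gene and so makes resveratrol in the grain. The mice were bought young, all diets were low in fat, and the labels name no inflammatory stimulus. Whole cages were assigned to diets, so that cage and diet cannot be told apart, and the p-values measure the spread between these mice. In an array list that accompanies the study, the identifiers of the RS arrays stand under DJ and those of the DJ arrays under RS. The labels were followed, and if they were crossed, every value given here for RS would belong to DJ and every value for DJ to RS.

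The acute-phase response is the change in plasma protein synthesis by which the liver answers infection or injury. Interleukin 6 acts on hepatocytes through STAT3, and interleukin 1 and tumour necrosis factor act through NF-kappa B, together with transcription factors of the C/EBP family. In mice, serum amyloid A proteins and Lcn2 are among the genes with the strongest response, haptoglobin, hemopexin and the orosomucoids rise less, and Apcs is the main acute-phase pentraxin, whereas Crp, the classical marker in humans, responds weakly.

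Levels are the log2 of the processed signal minus log2 of the 75th percentile of the same array, so that a level of 0 is the 75th percentile. A level of one probe is not comparable with that of another. The share of spots well above background was 73.0% to 80.8% per array, no spot was saturated, and the 75th percentile was 953 to 1167 signal units. All 7 hepatocyte markers examined (Alb, Apoa1, Ttr, Tat, Cps1, Cyp2e1 and Fabp1) were well above background on all 12 arrays. The 12 arrays lay on 3 slides of 4 arrays. Slide 1 held the 3 Ctrl mice and DJ 1, slide 2 held DJ 2, DJ 3, RS 1 and RS 2, and slide 3 held RS 3 and the 3 DJ526 mice. DJ526 therefore shared no slide with Ctrl or DJ, and RS shared none with Ctrl. For these pairs slide and diet are separated only through the other arrays. In bulk liver, fewer cells of a type and less RNA per cell cannot be told apart.

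The serum amyloid A genes and Lcn2 varied most between mice. The 250 bases before an annotated transcription start of each are shown because Saa1 and Saa2 moved almost as one gene. These 4 genes also carry most of the variation described below. The sequences are from RefSeq (build GRCm38.p6), matched by symbol for 8 of the 10 members, and run 5′ to 3′ toward the start. The annotated gene reaches farther upstream than that start for Saa1 (to 46743181) and Saa3 (to 46719615). The window of Saa1 thus lies partly, and that of Saa3 wholly, within the gene, and bases farther upstream were not read. Capitals mark matches on either strand to TTNNGNAA, a simplified C/EBP pattern.
Saa1 (chr7:46742981-46743230, minus strand): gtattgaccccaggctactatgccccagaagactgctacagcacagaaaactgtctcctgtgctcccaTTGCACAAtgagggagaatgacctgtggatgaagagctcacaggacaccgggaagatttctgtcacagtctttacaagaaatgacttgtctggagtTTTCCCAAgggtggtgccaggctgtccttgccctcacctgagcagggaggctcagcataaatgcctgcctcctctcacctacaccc
Saa2 (chr7:46751583-46751832, plus strand): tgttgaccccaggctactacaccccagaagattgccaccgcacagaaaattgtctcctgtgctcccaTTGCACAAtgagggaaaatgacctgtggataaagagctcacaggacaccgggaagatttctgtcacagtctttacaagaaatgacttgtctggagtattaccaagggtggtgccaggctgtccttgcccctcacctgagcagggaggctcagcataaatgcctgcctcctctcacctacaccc
Saa3 (chr7:46715677-46715926, minus strand): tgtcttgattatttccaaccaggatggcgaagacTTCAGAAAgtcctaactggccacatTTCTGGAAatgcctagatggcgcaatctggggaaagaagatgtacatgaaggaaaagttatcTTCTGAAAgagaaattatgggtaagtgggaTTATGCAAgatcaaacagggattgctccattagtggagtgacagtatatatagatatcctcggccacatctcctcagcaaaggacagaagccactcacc
Lcn2 (chr2:32387740-32387989, minus strand): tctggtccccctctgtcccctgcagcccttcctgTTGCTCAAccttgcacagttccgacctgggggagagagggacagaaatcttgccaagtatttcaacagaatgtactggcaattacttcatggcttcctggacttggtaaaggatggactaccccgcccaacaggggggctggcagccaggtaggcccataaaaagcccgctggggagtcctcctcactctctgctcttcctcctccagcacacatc

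The upstream sequences of Saa1 and Saa2 were identical at 238 of 251 aligned columns (94.8%), against 52.5% for Saa1 and Saa3. Saa1 held 2 C/EBP matches, Saa2 held 1, Saa3 held 4 and Lcn2 held 1. Over the 8 members with a sequence, 7 held at least 1 such match, and 36.8% of the 32851 promoters in the table did. The STAT pattern TTCNNNGAA was found in 1 of the 8, Apcs, and in 7.02% of all promoters. The kappa B consensus was found in 0 of the 8 and in 7.25% of all. All patterns were sought on both strands, and no STAT match overlapped a C/EBP match in these 8. A match is a match of letters in this window and was not tested as a binding site.

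No acute-phase gene differed between diets by limma with Benjamini-Hochberg adjustment over all probes (threshold 0.05). The count was 0 of 10 for RS against Ctrl, where 0% of all probes were called, and 0 of 10 for DJ against Ctrl, where 0% were called. It was 0 of 10 for DJ526 against Ctrl (0.00507% of all probes called), against DJ (0.0101%) and against RS (0.00761%). It was also 0 of 10 for the difference between effects, (DJ526 - DJ) - (RS - Ctrl) (0% of all probes), and in the F test over the 4 diets (0.00507%). DJ526 minus DJ holds any difference between the rice lines, and not only resveratrol. At an unadjusted p under 0.05, limma had 0 of 10 for RS, 2 for DJ (Hp and Crp), 0 for DJ526 against Ctrl, 1 for DJ526 against DJ (Hp), 0 for DJ526 against RS, 1 for the difference between effects (Hp) and 2 for the F test (Hp and Crp). Of all probes, 6%, 5.22%, 10.8%, 9.81%, 5.5%, 6.09% and 7.7% passed that unadjusted threshold in the same 7 tests, so that 1 of 10 between DJ526 and DJ is close to the share of all probes. The methods' t-test (unpaired), run on the same values, had 0, 0, 0, 1 (Hp) and 0 of 10 in the pairwise comparisons at that unadjusted threshold, and none after Benjamini-Hochberg adjustment. The lowest adjusted p of a member in the pairwise comparisons was 0.325, for Hp between DJ526 and DJ.

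**Figure D1:**
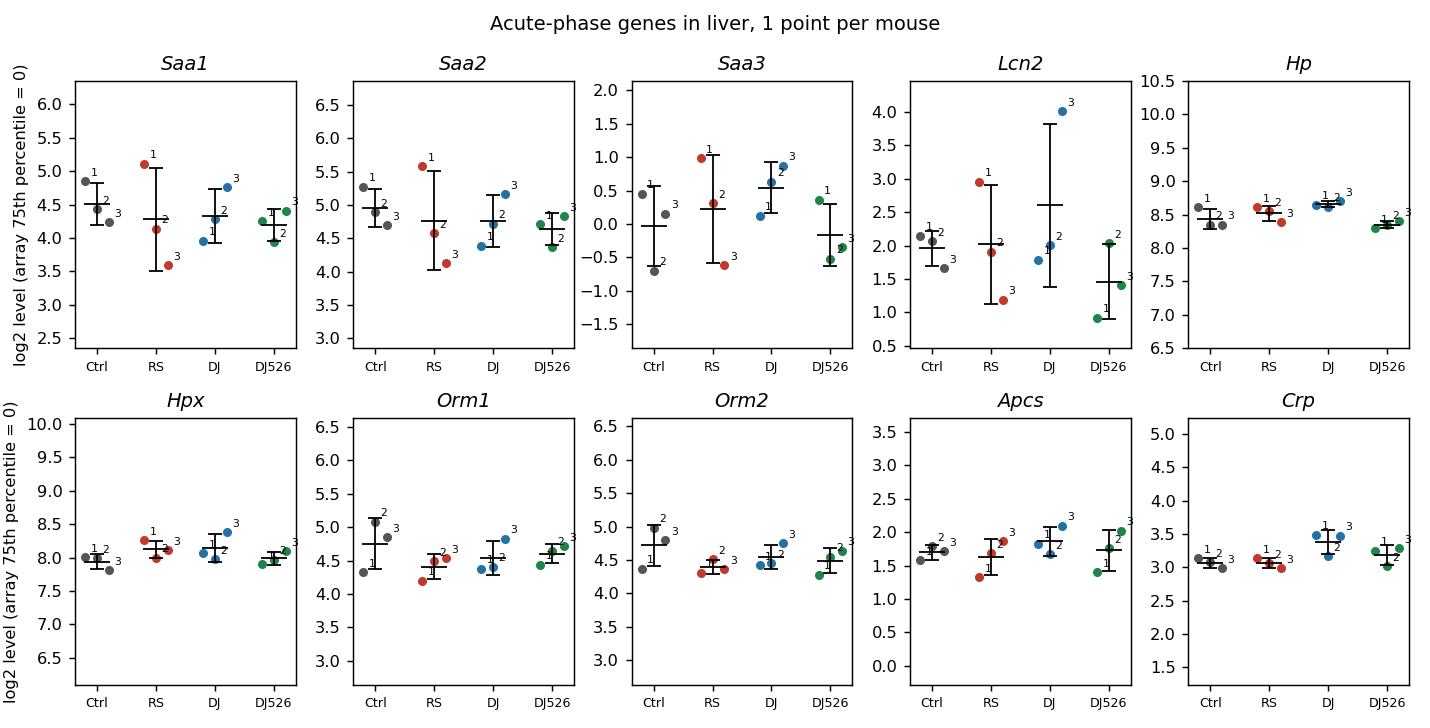
Log2 level of each acute-phase gene (y axis, 0 is the 75th percentile of the array; every panel spans the same number of log2 units) in each mouse by diet. Points are mice, numbered by replicate, and bars are the mean ± SD of 3 mice. The points of RS for Saa1 spread from 3.59 to 5.11, and DJ replicate 3 stands at 4.01 for Lcn2, whereas all 12 mice lie between 8.30 and 8.70 for Hp.

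Saa1 and Saa2 encode the serum amyloid A proteins that hepatocytes secrete onto high-density lipoprotein. The Saa1 level was 4.85, 4.43 and 4.24 in Ctrl, 5.11, 4.14 and 3.59 in RS, 3.96, 4.28 and 4.76 in DJ, and 4.25, 3.94 and 4.41 in DJ526 (replicates 1 to 3). The highest and the lowest mouse of all 12 were both on the RS diet, RS 1 and RS 3, and all groups overlapped. The group means ± SD (n = 3) ran from 4.50 ± 0.313 in Ctrl over 4.33 ± 0.398 in DJ and 4.28 ± 0.773 in RS to 4.20 ± 0.237 in DJ526, so that no neighbours in that order differed by more than their spread. From the lowest to the highest mouse Saa1 changed 2.88-fold.

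The Saa2 level was 5.27, 4.89 and 4.70 in Ctrl, 5.58, 4.58 and 4.13 in RS, 4.39, 4.72 and 5.16 in DJ, and 4.71, 4.37 and 4.83 in DJ526. The mice stood in the same order as for Saa1. The difference between the Saa2 and Saa1 probes stayed between 0.40 and 0.55 (SD 0.0380 over 12 mice), while each gene itself ranged over 1.53 (Saa1) and 1.45 (Saa2) log2 units. The 2 genes are close copies, as their upstream sequences above show, and whether each probe also binds the other transcript was not tested.

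Saa3 encodes a serum amyloid A that is also made outside the liver, in macrophages and adipocytes. Its level was 0.45, -0.70 and 0.15 in Ctrl, 0.98, 0.31 and -0.62 in RS, 0.12, 0.63 and 0.87 in DJ, and 0.36, -0.52 and -0.35 in DJ526. RS 1 was again the highest mouse, Ctrl 2 and RS 3 were the lowest, and all groups overlapped. The log2 fold change by limma was 0.58 between DJ and Ctrl (95% interval -0.33 to 1.48, SE 0.411) and -0.72 between DJ526 and DJ (-1.62 to 0.19), with adjusted p = 1.00 and 0.588. With slide as a block the value was 0.16 for DJ against Ctrl and 0.33 for DJ526 against DJ, which share no slide. Without Ctrl 2 the value for DJ against Ctrl was 0.25. For Saa3 the estimated difference between effects, (DJ526 - DJ) - (RS - Ctrl), was -0.97 (SE 0.581, adjusted p = 0.899 by limma), and with slide as a block it was 0.29.

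Markers of other cells that may hold these transcripts were read in the same mice. Of 5 adipocyte markers, 3 (Cidec, Retn and Fabp4) were well above background on all 12 arrays, and their summed linear level over all 5 was 2.36 to 4.47 in Ctrl, 1.63 to 3.17 in RS, 1.85 to 2.59 in DJ and 1.65 to 2.03 in DJ526. Adipoq, the adipocyte hormone adiponectin, stood at -2.88 in Ctrl 1, -3.03 in RS 1 and -3.49 in DJ 2 and between -6.90 and -5.64 in the other 9 mice, and it was well above background on 7 of the 12 arrays. Ctrl 1 and RS 1 were also the mice with the highest Saa1 and Saa2, whereas DJ 2 had a Saa1 level of 4.28, close to the median of 12 mice (4.26). Over the 12 mice, the log2 of the summed adipocyte markers had Pearson's r = 0.748 with Saa1. That sum mainly follows Fabp4 (0.52 to 1.80), as the next brightest marker, Cidec, stood at -3.68 to -0.85. The sums of the other cell types had r from -0.517 (T cell) to 0.462 (Kupffer cell and macrophage). In the T cell sum, Cd4 (4.09 to 5.26) outweighed Cd3e (0.82 to 1.54). A sum of linear levels follows its brightest probes, so these r do not stand for all markers of a cell type. The part of these cells in the Saa levels was not tested. All 7 Kupffer cell and macrophage markers measured were well above background on all arrays, with a summed level of 62.1 to 110 in Ctrl, 55.0 to 74.9 in RS, 52.3 to 74.5 in DJ and 53.1 to 79.2 in DJ526.

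Lcn2 encodes lipocalin 2, which binds bacterial siderophores and so withholds iron, and is made by hepatocytes in inflammation and by neutrophils. Its level was 2.15, 2.07 and 1.66 in Ctrl, 2.96, 1.91 and 1.19 in RS, 1.79, 2.01 and 4.01 in DJ, and 0.92, 2.04 and 1.41 in DJ526. DJ 3 stood far above the other 11 mice, RS 1 came next, and DJ526 1 was lowest, 8.55-fold below DJ 3. All groups overlapped.

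The group means ± SD of Lcn2 (n = 3) were 2.60 ± 1.23 in DJ, 2.02 ± 0.890 in RS, 1.96 ± 0.264 in Ctrl and 1.46 ± 0.565 in DJ526. The log2 fold change by limma was 0.64 between DJ and Ctrl (95% interval -0.62 to 1.90, SE 0.573, adjusted p = 1.00). Without DJ 3 it was -0.061, in the opposite direction, and without DJ 1 it was 1.05. Between DJ526 and DJ it was -1.15 (-2.41 to 0.12, adjusted p = 0.542), without DJ 3 it was -0.44, and with slide as a block it was -0.30. Between DJ526 and Ctrl it was -0.50 (-1.76 to 0.76) and between DJ526 and RS -0.56 (-1.82 to 0.70), with adjusted p = 0.786 and 0.986. Without DJ526 1 these values were -0.23 and -0.29, without DJ526 2 they were -0.79 and -0.85, and the value against RS was -0.09 without RS 1 and -0.98 without RS 3. For Lcn2 the estimated difference between effects, (DJ526 - DJ) - (RS - Ctrl), was -1.20 (SE 0.810, adjusted p = 0.924 by limma). That difference was -0.50 without DJ 3, -0.73 without RS 1 and 0.45 with slide as a block. On slide 1, the only slide with both DJ and Ctrl, the Lcn2 level of DJ 1 was lower than the mean of the 3 Ctrl mice (difference -0.17).

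The summed neutrophil markers were high in DJ 3 but highest in another mouse, and single markers differed. Of 10 markers, 9 were measured and 6 were well above background on all 12 arrays. Their summed linear level was 3.84, 4.04 and 11.7 in Ctrl, 3.26 to 4.51 in RS, 3.41, 4.42 and 6.46 in DJ, and 3.72 to 4.37 in DJ526. S100a9, a calcium-binding protein abundant in neutrophils, stood at 2.64 in Ctrl 3, 1.53 in DJ 3 and at most 0.77 in the other 10 mice. Lcn2 in Ctrl 3 was 1.66, below both other Ctrl mice, so that the mouse with the highest neutrophil marker sum was not among those with the highest Lcn2. The part of neutrophils in the Lcn2 level of DJ 3 was not tested.

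Hp encodes haptoglobin, which captures free haemoglobin in plasma. Its level was 8.61, 8.35 and 8.35 in Ctrl, 8.61, 8.55 and 8.39 in RS, 8.65, 8.62 and 8.70 in DJ, and 8.30, 8.35 and 8.40 in DJ526. Each DJ mouse stood above each Ctrl mouse and above each DJ526 mouse, and the 12 mice spanned 1.32-fold.

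Hp and Crp were the members whose groups did not overlap and are described for that reason, chosen after their values were seen. Groups did not overlap for 2 of 10 members between DJ and Ctrl (9.34% of all probes), for 1 of 10 between DJ526 and DJ (18.4%), and for 0 of 10 between RS and Ctrl (10.2%), DJ526 and Ctrl (20.6%) and DJ526 and RS (11.1%). With 3 mice on each side, the smallest two-sided p of an exact permutation test is 0.1. The log2 fold change of Hp by limma was 0.22 between DJ and Ctrl (95% interval 0.03 to 0.41, SE 0.0878, adjusted p = 0.936) and -0.31 between DJ526 and DJ (-0.50 to -0.11, adjusted p = 0.325). With slide as a block the latter was -0.12. Of the 7 hepatocyte markers, Alb was lower in every DJ526 mouse (9.01 to 9.06) than in every DJ mouse (9.25 to 9.41), as was Cyp2e1 (8.39 to 8.62 and 8.78 to 8.88), whereas Cps1 was 4.46, 4.99 and 5.09 in DJ526 and 4.04, 4.56 and 3.93 in DJ. Whether the amount of hepatocyte RNA plays a part in the Hp difference was not tested. For Hp the estimated difference between effects, (DJ526 - DJ) - (RS - Ctrl), was -0.39 (SE 0.124, adjusted p = 0.672 by limma).

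Hpx encodes hemopexin, which binds free haem. Its level was 8.01, 7.99 and 7.81 in Ctrl, 8.26, 8.0 and 8.11 in RS, 8.07, 7.98 and 8.38 in DJ, and 7.90, 7.97 and 8.10 in DJ526. DJ 3 was highest and Ctrl 3 lowest, 1.48-fold apart, and all groups overlapped.

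Orm1 and Orm2 encode orosomucoids, plasma glycoproteins that bind lipophilic drugs. The Orm1 level was 4.33, 5.08 and 4.85 in Ctrl, 4.20, 4.49 and 4.54 in RS, 4.38, 4.41 and 4.83 in DJ, and 4.44, 4.65 and 4.72 in DJ526. The Orm2 level was 4.37, 4.98 and 4.80 in Ctrl, 4.31, 4.51 and 4.36 in RS, 4.42, 4.45 and 4.75 in DJ, and 4.28, 4.55 and 4.64 in DJ526. Ctrl 2 was the highest mouse for both genes, and RS 1, the highest for the serum amyloid A genes, was the lowest for Orm1. The difference between the Orm2 and Orm1 probes stayed between -0.18 and 0.11 (SD 0.0894 over 12 mice). These genes too are close copies, and whether a probe also binds the other transcript was not tested.

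The pentraxins Apcs (serum amyloid P) and Crp (C-reactive protein) bind bacterial surfaces and chromatin. The Apcs level was 1.58, 1.79 and 1.72 in Ctrl, 1.33, 1.69 and 1.87 in RS, 1.83, 1.67 and 2.10 in DJ, and 1.40, 1.76 and 2.02 in DJ526. DJ 3 was highest and RS 1 lowest, and all groups overlapped. The Crp level was 3.14, 3.08 and 2.99 in Ctrl, 3.14, 3.06 and 2.99 in RS, 3.49, 3.17 and 3.47 in DJ, and 3.25, 3.02 and 3.29 in DJ526. All DJ mice stood above all Ctrl mice. Between DJ and Ctrl the log2 fold change of Crp by limma was 0.31 (95% interval 0.08 to 0.53, SE 0.102, adjusted p = 0.847), and on slide 1 DJ 1 exceeded the mean of the Ctrl mice by 0.42.

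**Figure D2:**
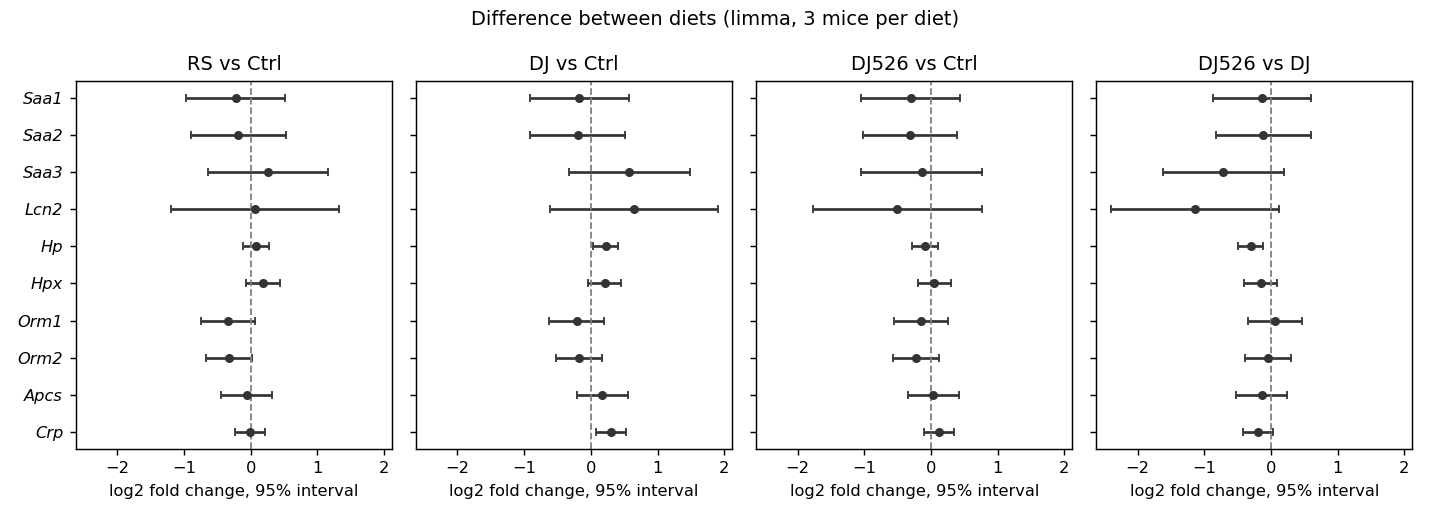
Log2 fold change of each acute-phase gene with its 95% interval by limma (x axis) in 4 comparisons, 3 mice per diet. The intervals of Lcn2 span 2.52 log2 units in each comparison shown, and only those of Hp and Crp (DJ against Ctrl) and of Hp (DJ526 against DJ) leave out 0.

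Over the 10 members, the median log2 fold change was -0.03 for RS against Ctrl (4 positive, 6 negative), where the median over all probes was 0.03. It was 0.19 for DJ against Ctrl (6 positive, 4 negative; all probes -0.02) and -0.14 for DJ526 against Ctrl (3 positive, 7 negative; all probes 0.02). For DJ526 against DJ it was -0.15 (1 positive, 9 negative; all probes 0.04), and for DJ526 against RS it was -0.10 (4 positive, 6 negative; all probes -0.00). DJ had the highest group mean for 6 members (Saa3, Lcn2, Hp, Hpx, Apcs and Crp) and Ctrl for the other 4, and DJ526 had the lowest for 5 (Saa1, Saa2, Saa3, Lcn2 and Hp). These comparisons share mice and are not independent. The direction of the median turned under some settings in every comparison but DJ526 against DJ. With slide as a block it was -0.02 for DJ against Ctrl, 0.02 for DJ526 against Ctrl and 0.16 for DJ526 against RS (7 positive, 3 negative), whereas it was -0.33 for RS against Ctrl and -0.09 for DJ526 against DJ. Without DJ 3 it was -0.0017 for DJ against Ctrl (5 positive, 5 negative) and -0.03 for DJ526 against DJ (4 positive, 6 negative), and with normexp background it was -0.02 for DJ against Ctrl. Without RS 3 it was 0.12 for RS against Ctrl (7 positive, 3 negative), and without Ctrl 1 that median was at 0.00 (5 positive, 5 negative). For DJ526 against RS it was 0.02 without RS 1 and 0.03 without DJ526 2.

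**Figure D3:**
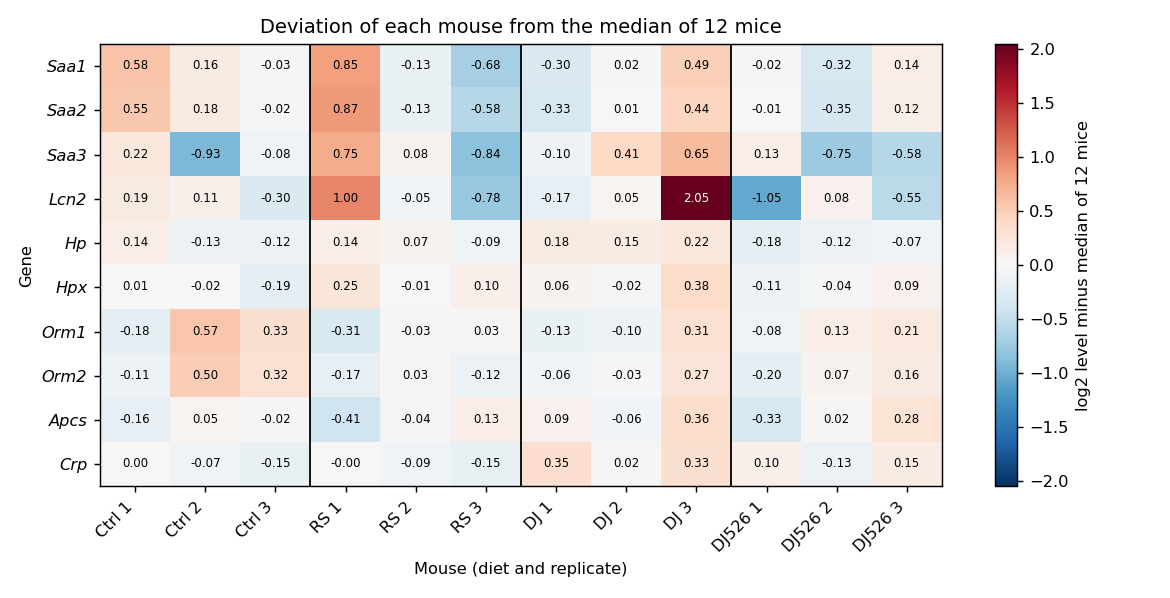
Log2 level of each acute-phase gene (rows) in each mouse (columns) minus the median of the 12 mice for that gene; red is above and blue below. The column of DJ 3 is red in all 10 rows and reaches 2.05 for Lcn2, whereas RS 1 is red for the Saa genes, Lcn2, Hp and Hpx and blue for Orm1, Orm2 and Apcs.

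Single mice were noted when a member lay more than 1 log2 unit from the median of the 12. Lcn2 was the only member with such mice, DJ 3 (2.05 above) and DJ526 1 (1.05 below). RS 1 lay 1.00 above, just inside the limit, and passed it under the 3 other scalings of the arrays, namely quantile, median and the deposited table. DJ526 1 no longer passed it in the deposited table, and RS 3 passed it, as low for 1 member, under the median. DJ 3 was above the median for 10 of 10 members, under all 4 scalings, and was the highest mouse for 4 (Lcn2, Hp, Hpx and Apcs). RS 1 was the highest for 3 (Saa1, Saa2 and Saa3) and the lowest for 2 (Orm1 and Apcs). Thus no mouse led in every member, and the mouse with the highest Lcn2 was not the one with the highest Saa1. No group was made from these mice.

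**Figure D4:**
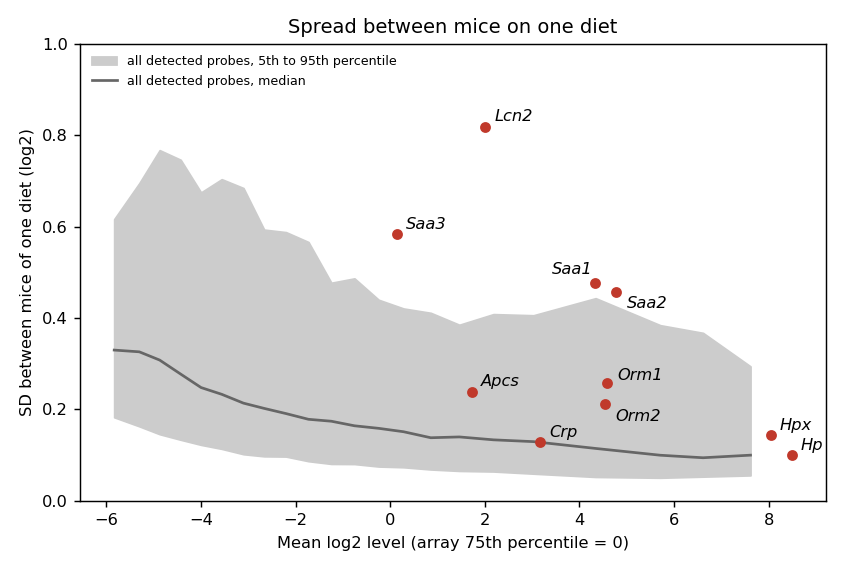
Pooled SD between mice on one diet (y axis, log2 units) against the mean log2 level (x axis) for the 10 acute-phase genes (red points) and for all probes well above background on all 12 arrays (grey line, median; grey band, 5th to 95th percentile, by bins of level). Lcn2, Saa3, Saa1 and Saa2 lie above the band, and Crp and Hp lie near the median line.

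The spread between mice on one diet (pooled within-group SD, 8 residual degrees of freedom) separated the members by gene. It was 0.819 for Lcn2, 0.584 for Saa3, 0.477 for Saa1 and 0.458 for Saa2. Among the 27285 probes well above background on all 12 arrays (69.2% of all probes), these values stood at percentiles 98.2, 95.2, 91.6 and 90.7, where the median SD was 0.191. The last point of the band in the plot of spread lies below the levels of Hp and Hpx. The SD was 0.257 for Orm1, 0.239 for Apcs, 0.211 for Orm2, 0.144 for Hpx, 0.129 for Crp and 0.0999 for Hp (percentile 14.6). Lcn2 and the serum amyloid A genes were thus the members for which mice on the same diet differed most.

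**Figure D5:**
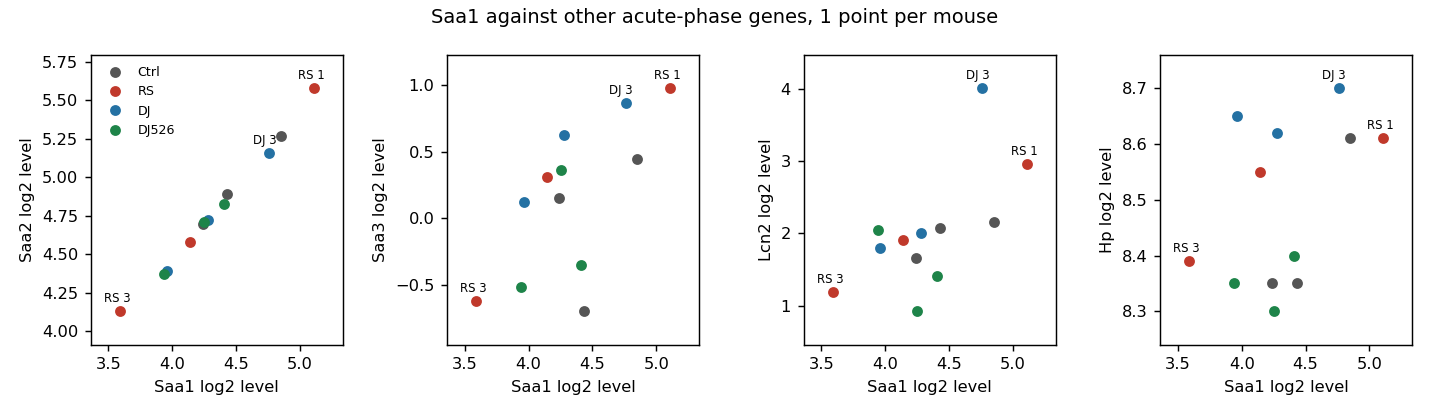
Log2 level of Saa2, Saa3, Lcn2 and Hp (y axes) against that of Saa1 (x axes), 1 point per mouse, coloured by diet. Saa2 follows Saa1 along one line (r = 0.997), whereas DJ 3 lies far above the other mice in the panel of Lcn2.

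Whether the members rose in the same mice was asked by correlating each of the other 9 with Saa1 over the 12 mice. Saa2 gave Pearson's r = 0.997 and Spearman's rho = 1 (permutation p = 1e-05 for each, the smallest that 100000 permutations can give; adjusted over the 9 relations, 9e-05). Saa3 gave r = 0.660 (permutation p = 0.0195, adjusted 0.0729) and rho = 0.601 (p = 0.0434, adjusted 0.130). Lcn2 gave r = 0.643 (permutation p = 0.0243, adjusted 0.0729) and rho = 0.643 (p = 0.0268, adjusted 0.121). The other 6 had r between -0.308 (Apcs) and 0.451 (Hp), with adjusted permutation p of 0.288 or more for r and 0.489 or more for rho. Without RS 1 and RS 3, the mice farthest from the median of Saa1, r was 0.998 for Saa2, 0.394 for Saa3 and 0.507 for Lcn2, so that the values of Saa3 and Lcn2 rest in part on these mice. On deviations from the group means, r was 0.998 for Saa2, 0.781 for Saa3, 0.738 for Hp and 0.720 for Lcn2, with adjusted p of 0.00695, 0.0927, 0.0833 and 0.102 by the exact test over the 1296 arrangements of mice within diets. A slide held 4 arrays, too few for a correlation within slides.

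Genes with the most similar pattern over the 12 mice are given as a description, with r and, after it, r without the mouse highest in the member, out of 20283 named probes well above background on all arrays. For Saa1 they included Cpt2 (0.917, 0.898), a carnitine palmitoyltransferase, Niban1, Fabp7 and Pcsk6 (0.912, 0.904 and 0.900). For Saa3 they were Gbp6 (0.927, 0.906), a guanylate-binding protein induced by interferon, Stk16, Bdh1, Tap1 and Ctsa (0.923, 0.912, 0.910 and 0.909). Tap1 is a subunit of the peptide transporter of antigen presentation. For Lcn2 they were Cenpv (0.941, 0.860), Pgap2, Mrps18a, Rusc1 and Rtn4 (0.920, 0.919, 0.919 and 0.913), and without DJ 3 the value of Rtn4 was 0.790.

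Other acute-phase genes were read from a list of 28, among them fibrinogen chains, complement components, serpins, Lbp, Hamp and metallothioneins. All 28 were measured and 27 were well above background on all arrays, A2m being the exception. By limma with Benjamini-Hochberg adjustment, 0 of 28 were called in each of the 5 pairwise comparisons. At an unadjusted p under 0.05 there were 2 higher and 3 lower in RS than in Ctrl, 6 higher and 0 lower in DJ, 2 higher and 4 lower in DJ526, 0 higher and 10 lower in DJ526 than in DJ, and none in DJ526 against RS, where 6%, 5.22%, 10.8%, 9.81% and 5.5% of all probes passed in either direction. Without overlap, 2 of the 28 were higher and 3 lower in RS than in Ctrl (10.2% of all probes), and 4 higher and 0 lower in DJ (9.34%). In DJ526, 2 were higher and 5 lower than in Ctrl (20.6%), and 0 higher and 3 lower than in RS (11.1%). Between DJ526 and DJ, 13 of the 28 were lower in every DJ526 mouse than in every DJ mouse and 1 was higher, where 18.4% of all probes did not overlap in either direction. Their median log2 fold change was -0.20 in that comparison (all probes 0.04), and -0.16 with slide as a block, where the median over all probes was itself -0.10. Of the 7 hepatocyte markers, 2 (Alb and Cyp2e1) were also lower without overlap in that comparison and 0 higher, and their part in these counts was not tested.

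Values of 2 of these genes illustrate that comparison and were chosen after they were seen. Fgg, the fibrinogen gamma chain, stood at 8.50, 8.53 and 8.56 in DJ and 8.30, 8.33 and 8.44 in DJ526, against 8.37, 8.39 and 8.20 in Ctrl. Lrg1, a leucine-rich glycoprotein of plasma, stood at 5.47, 5.52 and 6.01 in DJ and 5.13, 5.26 and 5.05 in DJ526, against 5.78, 5.53 and 5.42 in Ctrl. In both genes every DJ mouse lay above every DJ526 mouse. The log2 fold change by limma was -0.17 for Fgg and -0.52 for Lrg1, with adjusted p = 0.516 and 0.350, and without DJ 3 that of Lrg1 was -0.35.

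Hamp, which encodes the iron-regulating hormone hepcidin, was the one gene of the wider lists with a change of 1 log2 unit or more and no overlap. Its level was 6.09, 6.71 and 5.57 in Ctrl, 7.10, 7.56 and 7.22 in RS, 7.12, 7.30 and 6.35 in DJ, and 7.39, 6.88 and 7.46 in DJ526. All RS and DJ526 mice lay above all Ctrl mice, where 10.2% and 20.6% of all probes did not overlap in either direction. DJ overlapped with Ctrl. The Ctrl arrays lay on slide 1, which held no RS or DJ526 array. DJ 1, the other array of that slide, stood at 7.12. The part of slide in these differences was not tested. Whether the probe also binds the close copy Hamp2 was not tested. The log2 fold change by limma was 1.17 in RS (SE 0.304, adjusted p = 0.532) and 1.12 in DJ526 (SE 0.304, adjusted p = 0.237). DJ 3, the mouse highest in Lcn2, had the lowest Hamp level of the DJ mice.

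Of 7 negative acute-phase genes, which fall in inflammation (Alb, Ttr, Trf, Rbp4, Ahsg, Apoa1 and Serpina6), 0 were called in each pairwise comparison by limma, and at an unadjusted p under 0.05 there were 2 higher in RS, 1 higher in DJ and 1 lower in DJ526 than in Ctrl. Between DJ526 and DJ there were 1 higher and 1 lower, and between DJ526 and RS 1 lower. The shares of all probes in these 5 comparisons are those given for the wider list (6%, 5.22%, 10.8%, 9.81% and 5.5%). Their median log2 fold changes lay between -0.11 (DJ526 against DJ) and 0.13 (DJ against Ctrl). They moved the same way as the wider list of 28. Between DJ526 and DJ, 6 of the 7 and 22 of the 28 were lower. Between DJ and Ctrl, 6 of the 7 and 26 of the 28 were higher. With quantile normalization the median of the 7 between DJ526 and DJ was 0.05 (5 positive, 2 negative).

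Of 26 signalling genes of the response, 25 were well above background on all arrays and 0 were called in each pairwise comparison by limma. At an unadjusted p under 0.05 there were 0 in RS, 1 lower in DJ and 0 in DJ526 against Ctrl, 0 between DJ526 and DJ, and 1 higher in DJ526 than in RS, where 5.22% to 10.8% of all probes passed. Socs3, the feedback inhibitor that STAT3 induces, had a level of -0.71 in DJ 3 and -0.60 in RS 1, within the range of the other 10 mice (-0.90 to -0.22). Il1b, the gene of interleukin 1 beta, was -1.66 in DJ 3 and -0.17 in RS 1, the highest of the 12. Il1a, the gene of interleukin 1 alpha, was about equal in DJ 3 (-4.11), RS 1 (-4.12) and Ctrl 3 (-4.16), and lay between -5.29 and -4.40 in the other mice. Il6 lay between -4.85 and -4.00 in the 12 mice, with DJ 3 at -4.65 and RS 1 at -4.31.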

How the data were processed

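Total RNA of liver was hybridised to one-colour 4x44K arrays (label Cy3). The authors deposited, for each array, the scanner's spot intensity from Feature Extraction (version 11.5.1.1, per the file headers), with local background, outlier flags and a background-subtracted processed signal, and a table of globally normalized intensity, which was the processed signal times 1 factor per array (0.959 to 1.08) for 99.8% to 99.9% of probes. The log2 values used here were computed from the deposited signal.

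The processed signal was averaged over the spots of each probe whose feature was not marked as an outlier (marks on the local background alone were ignored), put on the log2 scale and centred on the 75th percentile of each array. Control spots were left out. A value was missing on at least 1 array for 68 probes. Gene symbols came from RefSeq accessions, and genes of the lists were represented by the brightest of their probes. limma 3.58.1 (R 4.3.3) was fitted with 1 mean per diet and a variance trend, with Benjamini-Hochberg adjustment of the p-values over 39429 probes. Array number, 3 per diet, limits the precision. Permutations used numpy 2.4.6 and scipy 1.17.1 (Python 3.11.15, pandas 2.3.3, figures with matplotlib 3.10.9). The limma fit was tested on simulated data.

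The members and the gene and marker lists were chosen with earlier results of these data known. Fold changes are given for members past the adjusted threshold or with a log2 fold change of at least 0.5, for Hp and Crp where groups did not overlap (Hp also for the difference between effects), the 5 most similar genes for Saa1, Saa3 and Lcn2 (1 of those for Saa1 is not reported here), and genes of the other lists past the threshold or with a change of at least 1 and no overlap. Marker lists for T cells, B cells, stellate, endothelial and pancreatic acinar cells were also read, and none of their members was called in a pairwise comparison. Replicate numbers did not pair the mice. Over 18 pairs of arrays with the same number, the correlation of deviations from the group means lay between -0.35 and 0.41 and was above 0.1 in 6. Alternatives were other background corrections, scalings, filters and blocks, the t-test and leaving out each mouse.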

Additional observations from a re-analysis of the deposited data

How the results depend on the processing

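No acute-phase gene was called by limma or by the methods' t-test in any of the 23 other settings that were run, and the lowest adjusted p of a member over all of them was 0.175, without RS replicate 3. Few probes of any gene were called in these settings, at most 173 of 39429 (DJ526 against Ctrl without RS 3). With the replicate block 0 of 10 members and 0 of all 39429 probes were called in each comparison, although the numbers do not pair the mice. Slide as a block moved the median of all probes by -0.15 (DJ526 against Ctrl), -0.14 (DJ526 against DJ) and -0.09 (DJ526 against RS). With slide as a block, the log2 fold change reversed for Lcn2 between DJ and Ctrl (-0.17) and between DJ526 and RS (0.27). It also reversed for Saa3 between DJ526 and DJ (0.33), and for Lcn2 (0.45) and Saa3 (0.29) in the difference between effects. In that setting DJ against Ctrl rests on slide 1, DJ 1 against the 3 Ctrl mice. DJ526 against RS rests on slide 3, where RS 3 is the only RS array. The other comparisons combine such differences from several slides, so that every value for DJ526 rests on RS 3. These values thus do not compare 3 mice with 3. Whether slide or the mice compared moved the values was not tested. When each mouse was left out, Lcn2 between DJ and Ctrl ranged from -0.061 to 1.05. The correlation of Saa1 with Orm1 (0.148) and Apcs (0.180) reversed without RS 1 and RS 3, and that with Orm2 (-0.10) on deviations from the group means. With normexp background, the log2 fold change of Hp was 0.09 between DJ and Ctrl and -0.16 between DJ526 and DJ. That setting also leaves out spots whose local background was marked as an outlier, so that Hp lacked a value on 4 arrays, Hpx on 5 and Apcs on 5, and Apcs could not be fitted against DJ526. Averaging several probes of a gene was not run, as each member has 1 probe. Of the counts, named fold changes and correlations recomputed, 9 reversed and 565 kept their direction and side of the threshold. Many of the 565 could not reverse, so the tally does not measure robustness. Without the variance trend, with only the groups compared or without a mouse of another diet, a pairwise fold change keeps its value. Counts of called members could hardly rise where almost no probe was called. The reversed medians over the members are given with the medians above.

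The number of mice limits these data, whereas the signal of all members was well above background. With 3 mice per diet the 95% interval of Lcn2 spanned 2.52 log2 units in every pairwise comparison, so a p that misses the threshold does not show equal levels.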
